A study of Mus musculus with 30 samples.

Results

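Imprinted genes are transcribed from only the maternal or only the paternal chromosome, and 8 of them were followed in mouse liver: Meg3, Rian, Mirg, Dlk1, H19, Igf2, Peg3 and Mest. The 8 genes were found by symbol among the 41388 genes of the count tables, and all 8 were present. They were chosen by their counts and CPM in these same libraries, known from earlier results, so their values and fold changes are given as descriptions, and no p-value is given for them. Other imprinted genes (57 of 61 listed were in the tables) and 47 genes of 4 related lists were tested. These lists were also chosen with earlier results known, so their p-values are no independent test. RNA was sequenced from pools, each made of RNA of 3 to 4 mice. Hepatocytes of 12-week-old mice, released with collagenase and kept overnight on collagen, gave 3 pools labelled A1cf-transgenic (Tg) and 3 wild-type C57BL/6J pools. Livers of 12-month-old mice gave 4 pools labelled Tg against 4 wild-type C57BL/6J (6J) pools, and 3 A1cf-knockout (KO) pools against 3 wild-type C57BL/6NJ (6NJ) pools. A1cf encodes an RNA-binding protein known as a cofactor of Apob mRNA editing. The promoter of the transgene is not given in the sources used here, nor is the part of A1cf deleted in the KO, and whether any mouse went into more than 1 pool is not stated.

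Imprinting rests on DNA methylation laid down in egg or sperm at control regions and kept through later cell divisions. In the Dlk1-Dio3 domain the noncoding RNAs Meg3, Rian and Mirg come from the maternal chromosome, and the protein-coding genes Dlk1, Rtl1 and Dio3 from the paternal one. H19 is a maternal noncoding RNA next to the paternal growth factor gene Igf2, and Peg3 and Mest are paternal. Many of these genes are abundant in fetal liver and are shut down after birth, and H19, Igf2 and Dlk1 are known to return in regenerating or tumorous liver.

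The promoter windows of the Dlk1-Dio3 genes are shown because the noncoding RNAs of this domain were low together in KO livers. Each window holds 250 bases before and 50 bases after a RefSeq start on GRCm38.p6, plus strand, with CpG, the dinucleotide that carries methylation, in capitals. The windows are chr12:109540746-109541045 for Meg3, chr12:109603695-109603994 for Rian, chr12:109734731-109735030 for Mirg and chr12:109452573-109452872 for Dlk1.
Meg3 promoter: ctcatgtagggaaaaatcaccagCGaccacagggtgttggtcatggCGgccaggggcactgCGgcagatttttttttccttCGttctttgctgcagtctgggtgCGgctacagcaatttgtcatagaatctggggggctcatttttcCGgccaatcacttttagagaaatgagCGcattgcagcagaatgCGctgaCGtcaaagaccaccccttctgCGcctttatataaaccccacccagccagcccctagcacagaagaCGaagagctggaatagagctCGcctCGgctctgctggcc
Rian promoter: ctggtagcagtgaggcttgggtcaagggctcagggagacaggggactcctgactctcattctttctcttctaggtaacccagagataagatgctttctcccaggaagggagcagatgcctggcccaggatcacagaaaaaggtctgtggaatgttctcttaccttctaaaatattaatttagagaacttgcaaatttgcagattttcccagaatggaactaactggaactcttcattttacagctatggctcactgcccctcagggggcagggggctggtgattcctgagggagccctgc
Mirg promoter: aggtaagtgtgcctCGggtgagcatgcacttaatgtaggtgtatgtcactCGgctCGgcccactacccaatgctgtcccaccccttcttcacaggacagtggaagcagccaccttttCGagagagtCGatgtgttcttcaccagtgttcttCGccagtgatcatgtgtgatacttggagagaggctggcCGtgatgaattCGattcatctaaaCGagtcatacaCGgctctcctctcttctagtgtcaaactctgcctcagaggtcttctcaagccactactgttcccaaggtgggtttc
Dlk1 promoter: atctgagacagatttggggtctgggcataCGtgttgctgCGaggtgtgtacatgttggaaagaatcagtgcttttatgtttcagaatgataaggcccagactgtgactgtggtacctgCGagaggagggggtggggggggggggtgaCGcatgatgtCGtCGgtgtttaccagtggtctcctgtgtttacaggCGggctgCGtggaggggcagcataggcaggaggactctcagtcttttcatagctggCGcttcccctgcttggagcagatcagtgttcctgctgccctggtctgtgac
The Meg3 window held 13 CpG, the Dlk1 window 9, the Mirg window 10 and the Rian window 0. The RefSeq start of Mirg lies inside the longer gene model of the count tables. Its window overlaps the hairpin of miR-668 and holds the whole hairpin of miR-485. Over the 13 windows of 7 of the 8 genes the median was 10 CpG, against 15 over 67 windows of other imprinted genes and 7 over all 32851 windows. The letters TGCCGC, which the imprint-keeping protein ZFP57 is known to bind when methylated, were searched on both strands. They stood in 4 of these 13 windows (30.8%), in 15 of the 67 windows of other imprinted genes (22.4%) and in 11.6% of all windows. The 4 windows belonged to Meg3, Igf2 and a pair of overlapping Mest windows, so that they held 3 distinct regions. On the given strand alone the count was 0 of 13.

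Several of the noncoding RNAs also carry microRNAs, and a few mature forms are shown because they are what these transcripts are known to release. RefSeq places 21 hairpins inside 6 of the 8 genes, 14 of them in Mirg and 3 in Rian. Seeds, bases 2 to 8, are in capitals. miR-675 comes from H19, miR-370 from Rian, miR-770 from Meg3 and the others from Mirg.
miR-675-5p: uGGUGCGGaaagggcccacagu
miR-675-3p: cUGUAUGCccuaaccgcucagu
miR-370-3p: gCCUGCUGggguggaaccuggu
miR-770-3p: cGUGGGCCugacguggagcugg
miR-410-3p: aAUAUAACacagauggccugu
miR-453: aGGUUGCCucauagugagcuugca
miR-496a-5p: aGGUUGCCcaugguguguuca
miR-453 and miR-496a-5p shared the seed GGUUGCC, the only seed shared within the set of 40 mature forms. The libraries were made from polyadenylated RNA, and the 20 hairpins listed in the count tables held 15 reads over all 20 RNA libraries. Mature microRNAs are not measured here, so the values below are those of the host transcripts.

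RNA libraries held 17044839 to 37211328 counts, and levels are given as CPM (counts scaled to the library total) or, between genes, as RPKM, which divides CPM further by gene length. A1cf was low in KO livers, at 24.5, 20.1 and 28.9 CPM against 237, 203 and 199 CPM in 6NJ livers. It was not raised in the pools labelled Tg. In liver these held 156 to 174 CPM against 216 to 279 CPM in 6J livers, lower without overlap (log2 -0.65 ± 0.11 SE, adjusted p = 0.0369, edgeR). In hepatocytes A1cf was at 7.36 to 10.5 CPM in pools labelled Tg and at 6.46 to 11 CPM in wild-type pools. All 12 hepatocyte markers were detected in all 20 libraries. The second 6J liver pool stood apart, with 935 CPM of Xist against 2.26 to 2.35 CPM in the other 6J pools. Its 24 skeletal muscle markers summed to 6058.3 CPM, against 99.5 to 172 CPM in the other 6J pools. The KO and 6NJ livers were sequenced in one study and the livers labelled Tg and 6J in another, so substrain and sequencing study cannot be told apart. In bulk RNA, fewer cells of a type and less RNA per cell cannot be told apart either.

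**Figure D1:**
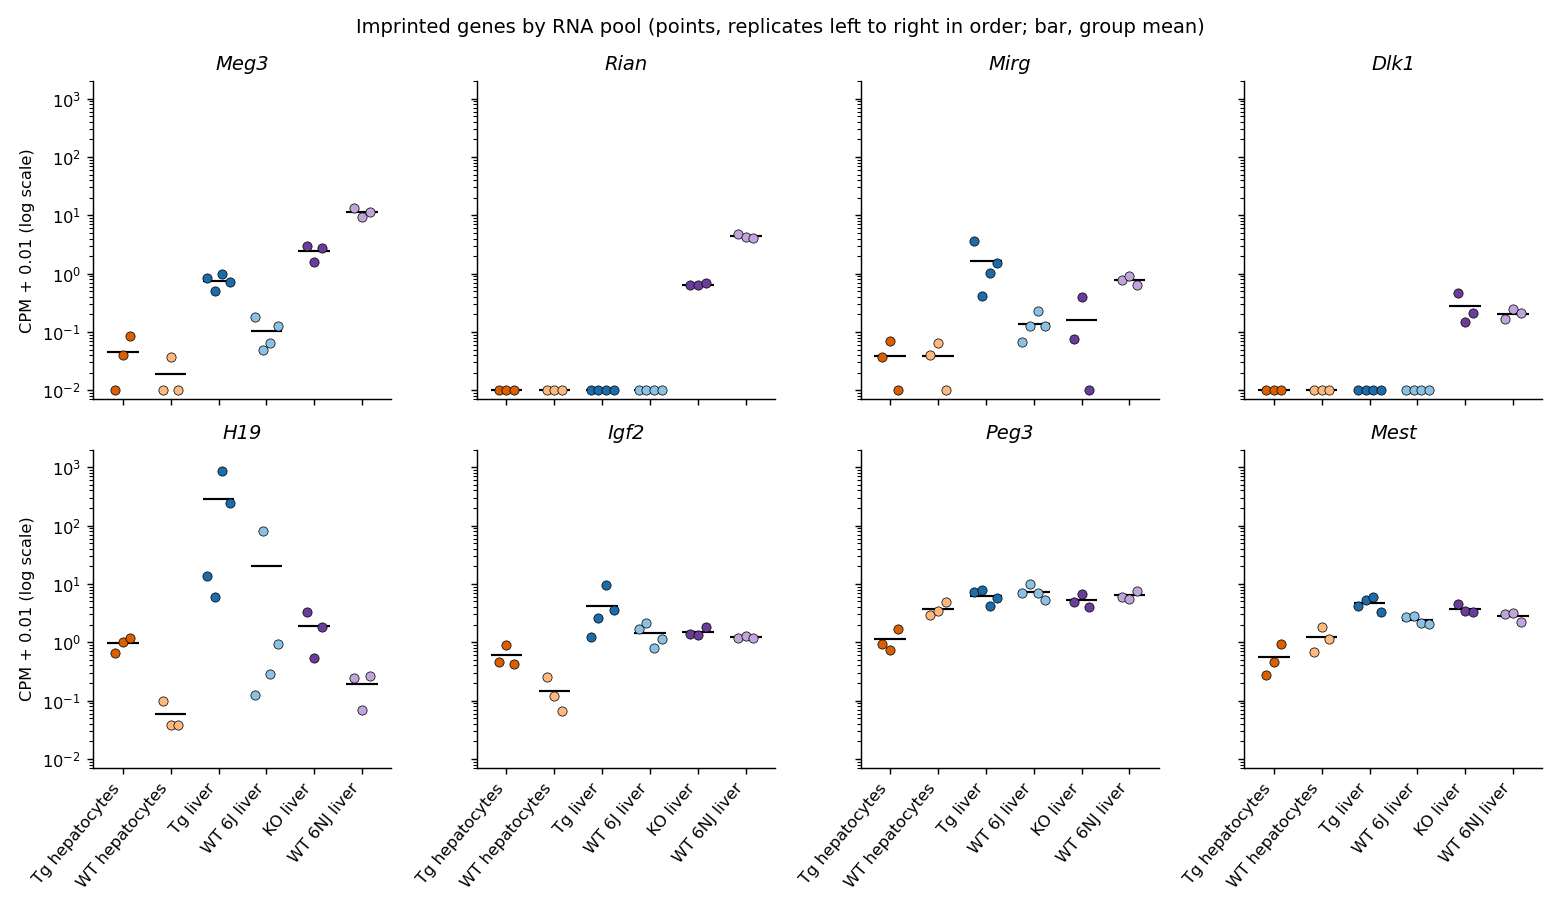
CPM of each of the 8 imprinted genes in every RNA pool, with 0.01 added for the log scale. Points are pools and bars are group means; Tg names the pools so labelled. Rian and Dlk1 were at 0 outside the KO and 6NJ livers, and H19 spanned 6.03 to 876 CPM among the livers labelled Tg.

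In the KO livers the maternal noncoding RNAs of the Dlk1-Dio3 domain were low in every pool, at 0.148 to 0.22 of the pooled 6NJ level, while Dlk1 was not. Meg3 (ENSMUSG00000021268, chr12:109541001-109571726, plus strand, GRCm38) had 89, 46 and 82 counts in KO livers, or 2.91, 1.60 and 2.77 CPM. In 6NJ livers it had 340, 315 and 401 counts, or 13.1, 9.29 and 11.3 CPM. All 3 KO pools were low, the groups did not overlap, and the second KO pool was the lowest. The log2 fold change of Meg3 was -2.21 ± 0.23 (SE, edgeR), and it stayed between -2.36 and -1.98 when any 1 pool was left out.

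Rian (ENSMUSG00000097451, chr12:109603940-109661716, plus strand), a host of small nucleolar RNAs and microRNAs, had 19, 18 and 20 counts in KO livers, or 0.621, 0.626 and 0.676 CPM. In 6NJ livers it had 125, 145 and 143 counts, or 4.83, 4.28 and 4.04 CPM. Both groups were tight and far apart, and the log2 fold change was -2.77 ± 0.22 (SE). Pooled over the 3 libraries a group, KO livers held 57 reads against 413 reads in 6NJ livers, a ratio of 0.148 with a 95% counting interval of 0.11 to 0.195. The same pooled ratio of Meg3 was 0.22, with an interval of 0.189 to 0.255. The intervals of Rian and Meg3 overlap only at their edges, and no test compared the genes.

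Mirg (ENSMUSG00000097391, chr12:109729764-109749460, plus strand), the host of a microRNA cluster, had 2, 11 and 0 counts in KO livers and 20, 31 and 22 counts in 6NJ livers. In CPM these were 0.0654, 0.383 and 0 in KO livers and 0.773, 0.914 and 0.622 in 6NJ livers. All 3 KO pools lay below all 3 6NJ pools, but the KO pools were uneven. The log2 fold change was -2.37 ± 0.75 (SE) and reached -4.38 without the second KO pool, so its size rested on that pool.

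Dlk1 (ENSMUSG00000040856, chr12:109452823-109463336, plus strand), a transmembrane protein related to Notch ligands, had 14, 4 and 6 counts in KO livers and 4, 8 and 7 counts in 6NJ livers. The groups overlapped, and the pooled ratio was 1.35, with an interval of 0.71 to 2.61. Its counts were too low for the expression filter and no fold was fitted. The interval lies above those of Meg3, Rian and Mirg, which end at 0.255, 0.195 and 0.347. These intervals cover counting error only and not the spread among pools, and 14 of the 24 KO counts of Dlk1 came from the first pool. The genes were not compared by a test.

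Rtl1, the paternal gene between Meg3 and Rian that encodes a retrotransposon-derived protein of the placenta, was not among the 8. It was tested with the other imprinted genes, a list also chosen with earlier results of these data known, so its p-value is no independent test. Rtl1 had 8, 8 and 5 counts in KO livers against 26, 50 and 35 counts in 6NJ livers, with no overlap. Rtl1 fell by 2.29 on the log2 scale (SE 0.39, adjusted p = 0.0168, edgeR's quasi-likelihood test with Benjamini-Hochberg adjustment over 15942 genes). The adjusted p ran from 0.0245 to 0.0818 when 1 pool was left out, and 3 of those 6 fits missed the threshold of 0.05, those without KO pool 1, KO pool 3 or 6NJ pool 2; over all alternatives it ran from 0.000678 to 0.192. A maternal transcript that hosts microRNAs is known to run opposite to Rtl1, and the strand setting of the counting is not given in the sources used here, so reads of both cannot be told apart. The unnamed gene B830012L14Rik between Rian and Mirg was chosen after its values were seen. It had 0.0654, 0.0696 and 0.0676 CPM in KO livers against 0.232, 0.295 and 0.566 CPM in 6NJ livers. Endothelial markers summed to 389 to 398 CPM in KO livers and 362 to 379 CPM in 6NJ livers, and hepatocyte markers to 88672.9 to 94353.9 CPM in KO livers and 96037.7 to 103284.0 CPM in 6NJ livers, both without overlap. Stellate cell and fibroblast markers (346 to 409 against 277 to 308 CPM) and skeletal muscle markers (101 to 355 against 68.5 to 88.8 CPM) were also higher in KO livers without overlap. Cholangiocyte markers (29.6 to 33.6 against 34.8 to 75.8 CPM) and exocrine pancreas markers (8.69 to 10.9 against 13.8 to 17.7 CPM) were lower without overlap. The remaining marker lists overlapped. The part of these cell types in the differences of the domain was not tested.

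**Figure D2:**
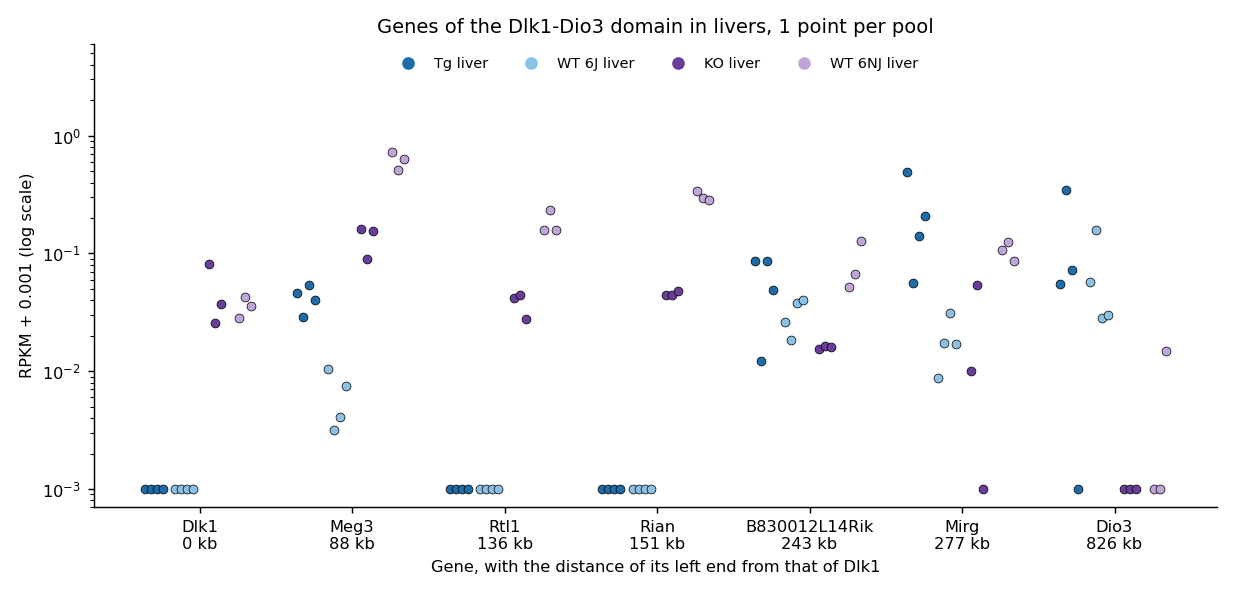
RPKM, with 0.001 added for the log scale, of 7 genes of the Dlk1-Dio3 domain in 14 liver pools, in genome order with the distance of each gene's left end from that of Dlk1 in kb. KO pools lay below 6NJ pools for Meg3, Rtl1, Rian, B830012L14Rik and Mirg, and the pools overlapped for Dlk1. B830012L14Rik was chosen after its values were seen, and the share of all genes lying apart in this way is not given here.

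The domain looked different in the 6J substrain. Rian was at 0 counts in all 4 livers labelled Tg and all 4 6J livers, where 3 counts over each group would be 0.0388 and 0.0384 CPM, against 4.38 ± 0.403 CPM (SD, n = 3) in 6NJ livers. Dlk1 and Rtl1 were also at 0 in these 8 livers. Genes with 0 counts in all 8 of them and at least 1 CPM on average in 6NJ livers numbered 65 of 13054, and among these were Rian and Rtl1. The reverse, 0 counts in all 6 KO and 6NJ livers and at least 1 CPM in 6J livers, held for 11 genes. The endothelial markers summed to 391 to 425 CPM in 6J livers and 362 to 379 CPM in 6NJ livers, and the stellate cell and fibroblast markers to 319 to 452 CPM in 6J livers and 277 to 308 CPM in 6NJ livers. The part of these cells in the zeros was not tested. The ribosomal protein gene Rpl23a, outside the domain and chosen after its values were seen, had 0.114 to 0.237 CPM in 6J livers and 21.9 to 29.1 CPM in 6NJ livers. Unlike Rian, Dlk1 and Rtl1 it was not at 0 in 6J livers, and whether the differences are related was not tested. Whether substrain, sequencing study or the assignment of reads moved with these zeros cannot be told apart.

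Meg3 and Mirg were detected in the livers labelled Tg and were nearly absent from 6J livers. Meg3 had 15, 10, 20 and 13 counts in livers labelled Tg, or 0.819, 0.502, 0.966 and 0.705 CPM. In 6J livers it had 3, 1, 1 and 2 counts. The groups did not overlap, and the pooled ratio was 8.36, with a 95% counting interval of 3.81 to 21.7. Mirg had 66, 8, 21 and 28 counts in livers labelled Tg, or 3.60, 0.402, 1.01 and 1.52 CPM, against 1, 3, 4 and 2 counts in 6J livers. The first pool labelled Tg was the highest, all 4 lay above the 6J pools, and the pooled ratio was 12.4, with an interval of 6.52 to 26.5. Neither gene passed the filter on low counts in this comparison, and no fold was fitted. Meg3 in livers labelled Tg, at 0.748 ± 0.195 CPM (SD, n = 4), was below its level of 2.43 ± 0.72 CPM (SD, n = 3) in KO livers, which come from the other sequencing study. Mirg, at 1.63 ± 1.39 CPM (SD, n = 4), was on average above its 0.149 ± 0.205 CPM (SD, n = 3) in KO livers, and the pools of both groups nearly met at 0.402 and 0.383 CPM.

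Reads on the 54 microRNA hairpin genes between Dlk1 and Dio3 numbered 16 in livers labelled Tg, 2 in 6J livers, 4 in KO livers and 27 in 6NJ livers. They are too few per gene to be described one by one. Dio3, which inactivates thyroid hormone and ends the domain, had 16.5 to 36.4 CPM in hepatocytes labelled Tg and 14.1 to 51.4 CPM in wild-type hepatocytes. In livers it did not pass 0.703 CPM. Its log2 fold change in hepatocytes was -0.14 ± 0.56 (SE, adjusted p = 0.874, edgeR) with overlapping pools, and its sign differed between alternatives. Rian and Dlk1 were at 0 in all 6 hepatocyte pools, Meg3 had 0, 1 and 2 counts in pools labelled Tg and 0, 1 and 0 in wild-type pools, and Mirg at most 2 counts in any pool. Endothelial markers summed to 19.5 to 42.3 CPM in hepatocyte pools and to 362 to 539 CPM in liver pools; their part in these zeros was not tested.

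H19 (ENSMUSG00000000031, chr7:142575529-142578143, minus strand) had the widest range of the 8 genes. In livers labelled Tg it had 253, 120, 18151 and 4567 counts, or 13.8, 6.03, 876 and 248 CPM. In 6J livers it had 2, 2008, 5 and 16 counts, or 0.114, 79.3, 0.276 and 0.939 CPM. Pools 3 and 4 labelled Tg were the highest, and the groups overlapped through the second 6J pool alone. The log2 fold change of 3.67 ± 1.97 (SE) became 9.09 without that pool. Without the third pool labelled Tg it was 2.02.

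The second 6J pool is the one with muscle RNA: skeletal muscle actin, Acta1, was at 778 CPM there and at 0.607 to 0.969 CPM in the other 6J pools, and none of its 24 muscle markers was at 0. H19 is known to stay active in adult skeletal muscle. In that pool H19 stood at 10.2% of Acta1. The pools labelled Tg held 0.163 to 0.71 CPM of Acta1 and muscle sums of 87.6 to 175 CPM, beside 99.5 to 172 CPM in the 3 other 6J pools, with 2 to 6 of the markers at 0. Stellate cell and fibroblast markers summed to 524 to 731 CPM in livers labelled Tg and 319 to 452 CPM in 6J livers, with 0 of 13 markers at 0. Adrenal cortex markers summed to 271 to 381 CPM in livers labelled Tg and 188 to 220 CPM in 6J livers, with 4 or 5 of 9 at 0 in the pools labelled Tg. Exocrine pancreas markers summed to 18 to 37.1 CPM and 6.04 to 14.7 CPM, with 6 to 8 of 10 at 0 in the pools labelled Tg. The summed hepatocyte markers were 97188.8 to 109638.2 CPM in livers labelled Tg and 130988.8 to 136977.1 CPM in 6J livers. The part of these cell types in the H19 difference was not tested.

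In KO livers H19 had 100, 15 and 53 counts, or 3.27, 0.522 and 1.79 CPM. In 6NJ livers it had 6, 2 and 9 counts, or 0.232, 0.059 and 0.254 CPM. The groups did not overlap, the second KO pool was the nearest to the 6NJ pools, and the log2 fold change was 3.35 ± 0.71 (SE). Muscle markers moved with it: Acta1 was at 44.8, 8.21 and 34.2 CPM in KO livers and at most 0.0885 CPM in 6NJ livers. The muscle sums were 355, 101 and 287 CPM in KO livers and 68.5 to 88.8 CPM in 6NJ livers, with 1 or 2 of 24 markers at 0 in KO pools and 10 or 11 in 6NJ pools. The order of the KO pools was the same for H19, Acta1 and the muscle sum, and H19 was 7.29%, 6.36% and 5.24% of Acta1 in KO pools 1 to 3. The part of muscle RNA in the H19 difference was not tested. Meg3 had 3, 1, 1 and 2 counts in 6J pools 1 to 4, of which the second is the one with muscle RNA. The part of muscle RNA in the Meg3 level was not tested.

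**Figure D3:**
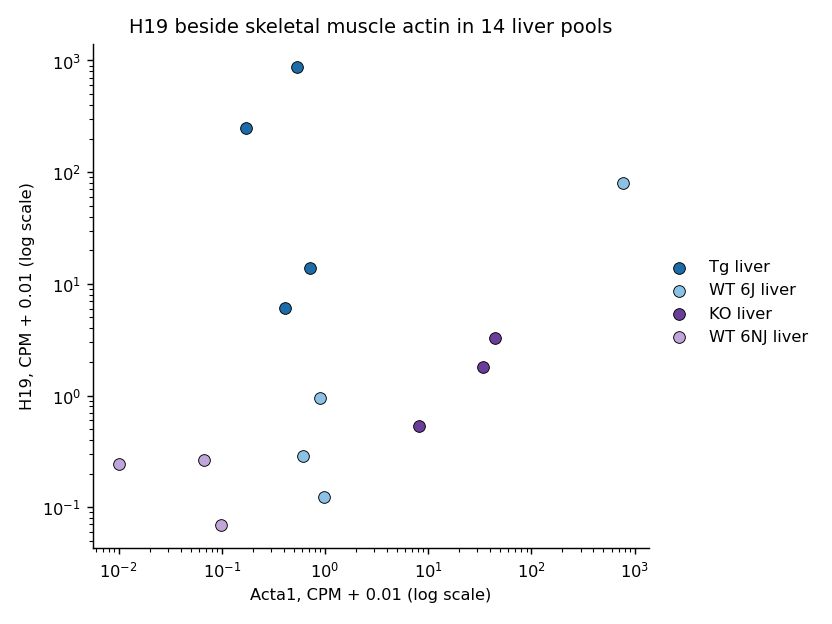
H19 against Acta1 in 14 liver pools, both in CPM with 0.01 added, on log scales. Among the 3 KO pools and the second 6J pool, both genes had the same order. The fourth 6J pool had 0.939 CPM of H19 at 0.88 CPM of Acta1, more H19 than the second KO pool with 0.522 CPM at 8.21 CPM of Acta1. The 4 pools labelled Tg had 6.03 to 876 CPM of H19 at 0.163 to 0.71 CPM of Acta1. The part of muscle RNA in H19 was not tested.

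In hepatocytes H19 had 24, 33 and 31 counts in pools labelled Tg, or 0.645, 1 and 1.19 CPM. Wild-type pools had 3, 1 and 1 counts. All 3 pools labelled Tg were high, without overlap, and the log2 fold change was 4.22 ± 0.54 (SE), with a pooled ratio of 19.2 and a 95% counting interval of 7.91 to 60.5. Acta1 was at 45.8, 16.3 and 19.6 CPM in hepatocytes labelled Tg and at 8.14, 3.98 and 11.2 CPM in wild-type hepatocytes, while muscle creatine kinase, Ckm, had 0 counts in every hepatocyte pool but 1 wild-type pool with 1 count. The 24 muscle markers summed to 50.4, 21.5 and 29.9 CPM in hepatocytes labelled Tg and to 12.6, 19.6 and 17.6 CPM in wild-type hepatocytes, with 10 to 12 markers at 0. Macrophage markers summed to 291 to 593 CPM in hepatocytes labelled Tg and 183 to 270 CPM in wild-type hepatocytes, and cholangiocyte markers to 407 to 670 CPM in hepatocytes labelled Tg and 690 to 1222.9 CPM in wild-type hepatocytes, both without overlap. All 8 macrophage markers were detected in every pool, and at most 1 of 7 cholangiocyte markers was at 0. Adrenal cortex markers summed to 142 to 163 CPM in hepatocytes labelled Tg and 116 to 120 CPM in wild-type hepatocytes, with 2 or 3 of 9 at 0. Exocrine pancreas markers summed to 5.39 to 7.65 CPM and 4.28 to 4.45 CPM, with 1 to 8 of 10 at 0. The part of these cell types in any hepatocyte difference given here was not tested.

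Igf2 (ENSMUSG00000048583, chr7:142650766-142666816, minus strand), the fetal growth factor beside H19, was higher in the same hepatocytes and in some of the same livers. It had 0.457, 0.883 and 0.421 CPM in hepatocytes labelled Tg and 0.24, 0.11 and 0.0569 CPM in wild-type hepatocytes. The groups did not overlap, at 11 to 29 counts against 2 to 8 counts, and the log2 fold change was 2.12 ± 0.59 (SE). In livers labelled Tg it had 1.2, 2.61, 9.66 and 3.53 CPM against 1.71, 2.17, 0.772 and 1.11 CPM in 6J livers. Pools 3 and 4 labelled Tg were again the highest, the first lay within the 6J range, and the log2 fold change of 1.39 ± 0.57 (SE) was 0.63 without the third pool. In KO livers Igf2 had 1.37, 1.32 and 1.83 CPM against 1.16, 1.27 and 1.19 CPM in 6NJ livers. The KO pools lay just above the 6NJ pools, with a log2 fold change of 0.31 ± 0.27 (SE), or 0.14 without the third KO pool. The antisense transcript Igf2os was at or under 0.29 CPM in every library, against an Igf2 level of up to 9.66 CPM.

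Several genes known for fetal liver or for binding Igf2 mRNA were set beside H19 and Igf2. Igf2bp3, an Igf2 mRNA-binding protein of the fetus, had 0.546, 0.402, 9.32 and 3.74 CPM in livers labelled Tg and 0.684, 0.435, 0.386 and 0.704 CPM in 6J livers. Pools 3 and 4 labelled Tg were high and the other pools lay in the 6J range, and the change did not pass the test (log2 2.49 ± 0.90 SE, adjusted p = 0.169, edgeR). Igf1r, the receptor through which IGF2 signals, had 6.06, 16.4, 18.7 and 20.2 CPM in livers labelled Tg and 4.74 to 6.5 CPM in 6J livers (log2 1.23 ± 0.30 SE, adjusted p = 0.0768, edgeR). Afp, the fetal serum albumin, had 4.81, 4.02, 9.46 and 6.29 CPM in livers labelled Tg and 2.62, 6.44, 2.32 and 1.99 CPM in 6J livers, again with the second 6J pool high. Gpc3, a fetal liver proteoglycan, was highest in the first pool labelled Tg, at 4.81 CPM, and so did not follow the order of H19.

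**Figure D4:**
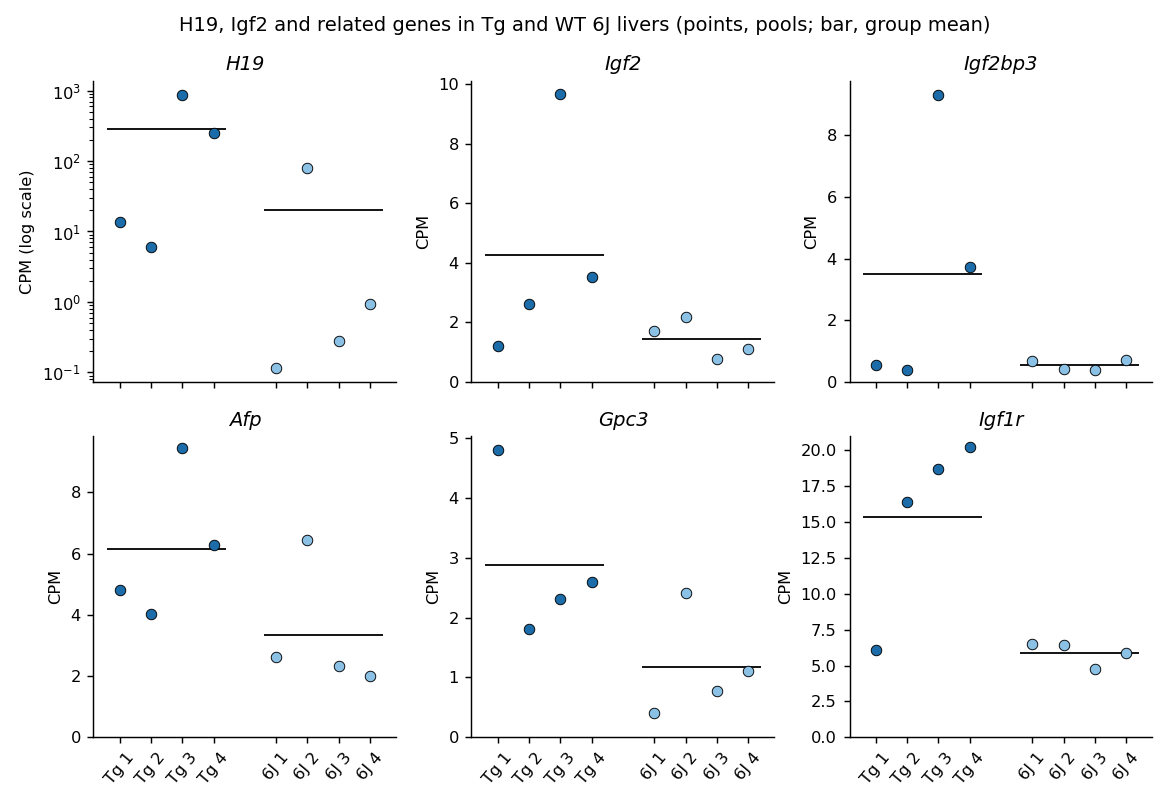
CPM of H19 (log scale), Igf2, Igf2bp3, Afp, Gpc3 and Igf1r in the 4 livers labelled Tg and the 4 6J livers, by pool, with group means as bars. Pool 3 labelled Tg is highest for H19, Igf2, Igf2bp3 and Afp, and 6J pool 2 is the highest 6J pool for H19, Igf2, Afp and Gpc3.

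In hepatocytes 4 of 39 tested genes of the 4 related lists rose and 0 fell. Igf2bp3 rose in pools labelled Tg, at 2.02 ± 0.37 CPM against 0.377 ± 0.158 CPM in wild-type pools (SD, n = 3 each; log2 2.45 ± 0.38 SE, adjusted p = 0.0298, edgeR). Igf1r rose as well, at 3.24 ± 0.303 CPM against 0.663 ± 0.173 CPM (log2 2.32 ± 0.29 SE, adjusted p = 0.0178, edgeR). Afp rose by 1.71 ± 0.31 on the log2 scale (adjusted p = 0.0401, edgeR) and Igfbp6, a binding protein that prefers IGF2, by 3.31 ± 0.61 (adjusted p = 0.0421, edgeR). These calls held in 2 of the 6 fits that left out 1 pool for Igf2bp3 and Igf1r (without Tg pool 3 or wild-type pool 2) and in 1 for Afp and Igfbp6 (without Tg pool 3). Igf2bp2, of the same list as Igf2bp3, went the other way, at 3.92 ± 1.88 CPM against 11.9 ± 0.95 CPM in wild-type pools, without overlap. It did not pass the test (log2 -1.59 ± 0.35 SE, adjusted p = 0.06, edgeR), nor did Igf2bp1 (0.92 ± 0.50, adjusted p = 0.25, edgeR). The 39 genes had a median log2 fold change of -0.04, and those tested in livers labelled Tg and KO livers, 44 each, had medians of -0.01 and 0.13, with 2 and 3 called, beside 1.33% and 2.98% of all genes. Over all genes, 434 of 13770 were called (3.15%), but 0 were called without wild-type hepatocyte pool 3.

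Peg3 (ENSMUSG00000002265, chr7:6703892-6730421, minus strand) is a paternal zinc finger gene that was expressed in all 20 RNA libraries. In hepatocytes labelled Tg it had 34, 24 and 44 counts, or 0.914, 0.731 and 1.68 CPM, against 2.94, 3.43 and 4.95 CPM in wild-type hepatocytes. All 3 pools labelled Tg were low, the groups did not overlap, and the log2 fold change was -1.73 ± 0.38 (SE). Livers gave 7.21, 7.84, 4.10 and 5.64 CPM in pools labelled Tg and 6.90, 9.80, 7 and 5.22 CPM in 6J pools. They gave 4.90, 6.68 and 4.09 CPM in KO pools and 5.99, 5.60 and 7.44 CPM in 6NJ pools. The groups overlapped in both liver comparisons, with log2 fold changes of -0.35 ± 0.26 and -0.29 ± 0.19 (SE).

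Mest (ENSMUSG00000051855, chr6:30723547-30748455, plus strand), a paternal gene of the hydrolase fold also known from expanding fat tissue, differed in opposite directions in hepatocytes and livers labelled Tg. In hepatocytes it had 0.269, 0.457 and 0.918 CPM in pools labelled Tg and 0.661, 1.84 and 1.14 CPM in wild-type pools, a log2 fold change of -1.14 ± 0.55 (SE) with overlapping pools. In livers it had 4.10, 5.32, 6.04 and 3.31 CPM in pools labelled Tg and 2.68, 2.77, 2.15 and 2.05 CPM in 6J pools. All 4 pools labelled Tg lay above all 4 6J pools, and the log2 fold change of 0.82 ± 0.23 (SE) stayed between 0.71 and 0.96 with any 1 pool left out. KO livers had 4.44, 3.41 and 3.31 CPM against 3.09, 3.16 and 2.21 CPM in 6NJ livers, with no overlap and a log2 fold change of 0.40 ± 0.22 (SE). Adipocyte markers summed to 2211.7 to 5139.2 CPM in livers labelled Tg and 1923.7 to 5784.6 CPM in 6J livers, with overlapping ranges. Stellate cell and fibroblast markers were higher without overlap in livers labelled Tg, as given above, and cholangiocyte markers summed to 52.3 to 126 CPM there and 37.5 to 48.4 CPM in 6J livers, with at most 1 of 7 at 0. In KO livers stellate cell and fibroblast markers summed to 346 to 409 CPM, against 277 to 308 CPM in 6NJ livers, with 0 of 13 at 0 in any of these pools. Their part in the Mest differences was not tested. The 3' end of Mest overlaps the antisense gene Copg2.

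At an adjusted p below 0.05, 1 of the 4 listed genes tested was called in hepatocytes, where 3.15% of all genes were called. In the livers labelled Tg it was 0 of 4 against 1.33% of all 14110 genes, and in KO livers 3 of 7 against 2.98% of all 15942 genes. Of all genes, 1.53% were called higher and 1.62% lower in hepatocytes, 0.971% higher and 0.361% lower in livers labelled Tg, and 1.5% higher and 1.48% lower in KO livers. Since the genes were chosen by these values, the counts are no test of them and nothing is read from them. The listed genes that did not pass the filter on low counts were Meg3, Rian, Mirg and Dlk1 in hepatocytes and in the livers labelled Tg, and Dlk1 in KO livers.

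Per gene length the order of the 8 genes differed between groups. In 6NJ livers Mest led with 0.716 ± 0.135 RPKM, followed by Meg3 with 0.622 ± 0.106 and Peg3 with 0.476 ± 0.0726, whose spreads adjoin (SD, n = 3). Rian with 0.305 ± 0.028, Igf2 with 0.211 ± 0.00988 and Mirg with 0.106 ± 0.02 RPKM followed, each apart from the one before it by more than both SDs. H19, at 0.0766 ± 0.0451 RPKM, and Dlk1, at 0.0347 ± 0.0072 RPKM, came last and did not stand apart from Mirg or from each other in this way, except Dlk1 from Mirg. In KO livers Mest led with 0.946 ± 0.159 RPKM and H19 came next with 0.784 ± 0.579, within its spread. Peg3 with 0.392 ± 0.0993 and Igf2 with 0.263 ± 0.0486 RPKM followed, Meg3 stood at 0.134 ± 0.0398 and Rian at 0.0446 ± 0.00214, level with Dlk1 at 0.0471 ± 0.0298 (SD, n = 3). In livers labelled Tg H19 led with 121 ± 173 RPKM, an SD larger than its mean, and Mest followed with 1.19 ± 0.31 RPKM (SD, n = 4). Igf2 with 0.742 ± 0.652, Peg3 with 0.466 ± 0.126 and Mirg with 0.224 ± 0.191 RPKM lay within reach of their neighbours' spread, and Meg3 was the lowest detected with 0.0414 ± 0.0108 RPKM. In 6J livers the H19 mean of 8.5 ± 16.6 RPKM came from the second pool, Mest had 0.613 ± 0.0919 RPKM and Peg3 0.543 ± 0.142 RPKM (SD, n = 4), within each other's spread. In hepatocytes H19 led in pools labelled Tg, with 0.398 ± 0.116 RPKM against 0.139 ± 0.0849 for Mest, and Mest and Peg3 led in wild-type pools, with 0.308 ± 0.151 and 0.284 ± 0.0787 RPKM (SD, n = 3 each).

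Among the other imprinted genes, 2 of 38 tested fell in hepatocytes labelled Tg, 0 of 39 changed in livers labelled Tg, and 3 of 44 fell in KO livers, with 0 rises in each comparison, by edgeR. These are 5.26%, 0% and 6.82% of the genes tested, beside 3.15%, 1.33% and 2.98% of all genes. DESeq2 called 3 rises and 4 falls in hepatocytes, 6 rises and 0 falls in livers labelled Tg, and 1 rise and 5 falls in KO livers. Over all genes DESeq2 called 2026 of 13770, 1242 of 14110 and 892 of 15942, many more than edgeR. A fit over all 6 groups called 7 rises and 6 falls in hepatocytes, 4 rises and 0 falls in livers labelled Tg, and 0 in KO livers. That fit tested 47 of the other imprinted genes, and it called 4323, 991 and 42 of all 17267 genes. The median log2 fold changes over the tested genes were -0.19, 0.10 and -0.03, beside -0.02, -0.00 and -0.01 over all genes. In hepatocytes Sgce, a paternal sarcoglycan gene, fell to 3.31 ± 0.668 CPM in pools labelled Tg, against 11.1 ± 1.33 CPM in wild-type pools (SD, n = 3 each; log2 -1.71 ± 0.21 SE, adjusted p = 0.0186, edgeR). Slc38a4, a paternal amino acid transporter gene, fell to 317 ± 35.5 CPM in pools labelled Tg, against 562 ± 17.4 CPM in wild-type pools (log2 -0.78 ± 0.15 SE, adjusted p = 0.0478, edgeR). Sgce was called in 2 of 6 fits without 1 pool (those without Tg pool 3 or wild-type pool 2) and Slc38a4 in 1 (without Tg pool 3); Slc38a4 also missed the threshold with RLE size factors and without the filter on low counts. In the livers labelled Tg, 9 of the 39 genes and 2861 of all genes had an unadjusted p below 0.05.

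In KO livers Tfpi2, a protease inhibitor gene of the Peg10-Sgce cluster, fell to 14.6 ± 1.44 CPM, against 29.8 ± 5.09 CPM in 6NJ livers (SD, n = 3 each; log2 -1.03 ± 0.13 SE, adjusted p = 0.00441, edgeR), and was called whichever pool was left out. Ppp1r9a, of the same cluster, fell by 0.54 ± 0.12 on the log2 scale (adjusted p = 0.0436, edgeR), but in none of the 6 fits without 1 pool. Rtl1, described above, was the third. None of the 3 was called in a fit over all 6 groups, where the KO comparison had 42 calls in place of 475. Other well-known members were measured but not called in any comparison. Igf2r, the maternal receptor that clears IGF2, had 133 ± 3.86 CPM in KO livers and 111 ± 6.93 CPM in 6NJ livers (adjusted p = 0.140, edgeR). Cdkn1c, a maternal cell cycle inhibitor, had 1.01 ± 0.192 CPM in hepatocytes labelled Tg and 0.488 ± 0.0676 CPM in wild-type hepatocytes (adjusted p = 0.0928, edgeR). Plagl1, a zinc finger gene that ties imprinted genes into a network, had 2.42 ± 0.29 CPM in KO livers and 1.60 ± 0.203 CPM in 6NJ livers (adjusted p = 0.186, edgeR). Grb10 and Gnas were between 4.46 and 13.4 CPM and between 16.5 and 69.0 CPM in every library.

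**Figure D5:**
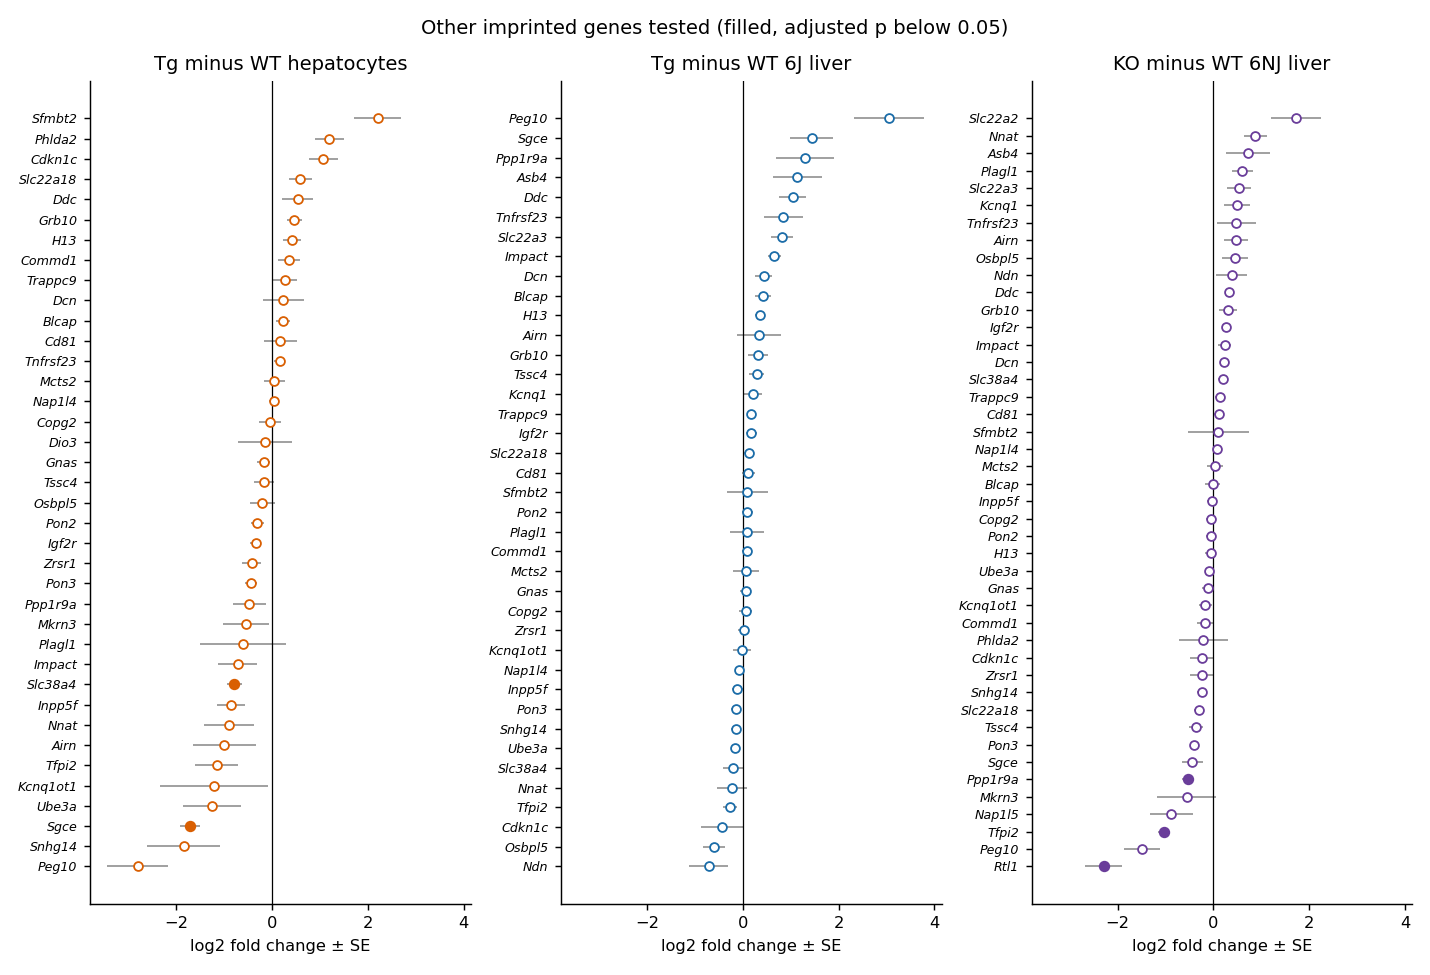
Log2 fold changes ± SE of the other imprinted genes that passed the filter in each of 3 comparisons, sorted, with adjusted p below 0.05 filled. Filled points are Sgce and Slc38a4 in hepatocytes and Rtl1, Tfpi2 and Ppp1r9a in KO livers, all below 0, and there are none in livers labelled Tg.

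Of the factors that keep imprints, 1 of 12 fell in KO livers and 0 rose, beside 1.48% of all genes called lower and 1.5% called higher. This was Zfp445, a KRAB zinc finger gene, at 40.9 ± 0.795 CPM in KO livers against 60.2 ± 6.69 CPM in 6NJ livers (SD, n = 3 each; log2 -0.57 ± 0.09 SE, adjusted p = 0.0124, edgeR). It missed the threshold without KO pool 1 or KO pool 3. None of the 12 was called in the other comparisons by edgeR, with 1 at an unadjusted p below 0.05 in hepatocytes and 2 in livers labelled Tg. Over all genes such a p was held by 3973 of 13770 and 2861 of 14110. DESeq2 called 0 of the 12 in both, beside 2026 and 1242 of all these genes. Of the insulin-like growth factor axis, Igfbp3 (log2 0.47 ± 0.09 SE, adjusted p = 0.0237, edgeR) and Irs2 (0.58 ± 0.13, adjusted p = 0.0471, edgeR) rose in KO livers, 2 of 14 tested, beside 1.5% of all genes called higher. Igfbp3 missed the threshold without any 1 of the KO pools or 6NJ pool 2, and Irs2 without any 1 pool but KO pool 3. In livers labelled Tg Igfbp7 rose to 162 ± 11.8 CPM, against 83.9 ± 6.21 CPM in 6J livers (SD, n = 4 each; log2 0.82 ± 0.10 SE, adjusted p = 0.00771, edgeR). Igfals, the subunit that stabilises circulating IGF, fell to 127 ± 8.81 CPM, against 210 ± 45.5 CPM in 6J livers (log2 -0.86 ± 0.16 SE, adjusted p = 0.0405, edgeR). These were the 2 of 14 called there, beside 1.33% of all genes. Igfbp7 missed the threshold without 6J pool 3, and Igfals without Tg pool 2, 3 or 4 or 6J pool 3 or 4. Of the Notch receptors, ligands and targets, the pathway that DLK1 is known to touch, 8 were tested in hepatocytes and 12 in each liver comparison. By edgeR none was called, with 0, 2 and 2 at an unadjusted p below 0.05 in hepatocytes, livers labelled Tg and KO livers. Over all genes such a p was held by 3973 of 13770, 2861 of 14110 and 2941 of 15942. DESeq2 called 0, 1 and 1 of the Notch list, beside 2026, 1242 and 892 of all these genes.

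Across the 14 liver pools, after removal of each sequencing study's mean from log2(CPM + 1), Meg3 and Rian followed each other with Pearson's r = 0.90, H19 and Igf2 with r = 0.84, and Igf2 and Mest with r = 0.69. Pools of a group share genotype and study, so these are descriptions. The difference between the 2 groups of each study was not removed, so r holds that difference too. Among 13285 genes, those most like Meg3 were Psma4, Supt20, Ap1ar, Ccdc171 and Gnai3, with r = 0.93 to 0.90. Those most like Rian were A1cf itself with r = 0.98, and Fam234b, Pex5 and Ttpa. Since Rian is at 0 in 8 of the 14 pools, its likeness rests on the KO and 6NJ pools. A1cf, the gene knocked out, is also low in all KO pools, so its r with Rian largely restates the difference between these 2 groups. The genes most like H19 were Snora20, Ier5, Spn, Cav1 and Rragd, with r = 0.97 to 0.95, and those most like Igf2 were Adam8, Ubl3, Myo5a, Pheta1 and Itpr3, with r = 0.97 to 0.96. Mest was most like Dkk3, Ifi27l2a, Rnd1, Fes and Ppic, with r = 0.92 to 0.91, and Peg3 like Sp4, Acnat1, Fam107b, Slc22a15 and Cbs, with r = 0.87 to 0.83. By Spearman's rho 12 of these 30 genes were again among the closest 5, and over the 8 livers labelled Tg and 6J 1 of 30 was. The genes of Rian could not recur over those 8 livers, where Rian is at 0 and has no correlation.

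RNA bound by A1CF was sampled by CLIP in 10 libraries of hepatocytes labelled Tg, without a control precipitate, with 80854 counts in all. Peg3 had 1 count, or 0.00124% with a 95% Wilson interval of 0.000218% to 0.00701%, and the other 7 genes had 0, which allows a share of up to 0.00371% each. Of the 7, Mest, Igf2 and H19 stood at 0.548, 0.587 and 0.945 CPM in the hepatocytes labelled Tg, and Meg3, Rian, Mirg and Dlk1 at most at 0.0356 CPM, so that a count was hardly detectable at this depth. Among the other imprinted genes 15 of 57 had a count (26.3%), beside 13.7% of all genes; among those with at least 1 CPM in hepatocytes labelled Tg it was 11 of 35 (31.4%), beside 29.7% of all such genes. They were led by Phlda2, a maternal gene that restrains placental growth, with 50 counts in 10 of 10 libraries.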

How the data were processed

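Gene counts of 20 RNA-seq libraries and 10 CLIP libraries were analysed. Per the submitters' processing notes the authors used bcl2fastq, then STAR 2.0.4b on GRCm38, then featureCounts 1.45 from Subread to count reads per gene. The strand setting, the annotation release and the handling of multiply aligned reads are not given in the sources used here. The deposited counts are raw, the deposited CPM are counts over the library total, and the deposited RPKM divide that CPM by gene length; on recomputation they differed by at most 4.9e-10 and 1.6e-10. Symbols came from a gene table that matched 40254 of the 41388 identifiers. Promoters and microRNAs came from RefSeq tables on GRCm38.p6.

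The 3 comparisons were fitted separately, each on the libraries of its 2 groups, with edgeR 4.0.16 in R 4.3.3 (filterByExpr with a minimum count of 10 and minimum total of 15, TMM, two-sided quasi-likelihood test, Benjamini-Hochberg over all genes, threshold 0.05). Alternatives were DESeq2 1.42.0, RLE size factors, no filter, a replicate block, 1 fit over all 6 RNA groups, and each library left out. On simulated data with 200 genes changed 4-fold the test was run for each comparison, and the outcome is not given here. The simulation gave every gene the same dispersion and held no outlying pool. It therefore does not show how calls behave when 1 pool stands apart. Replicates of equal number are not said to be paired, and the correlations of their deviations ran from -0.485 to 0.67, so the main fits hold no block. A limit for 0 counts is 3 counts, and intervals (95%, exact for ratios of pooled counts, Wilson for shares) and limits cover counting error only, since PCR copies are not independent molecules. P-values reflect the spread among RNA pools, not single mice. Pools without overlap are given per gene as a description, without the share of all genes that lie apart in the same way.

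The 8 genes and all lists were chosen with earlier results of these data known. The text names the 8 genes, the list members past the threshold, 8 well-known imprinted genes, marker genes, and the 5 genes most like each of the 8 with at least 1 CPM on average in livers, of which 1 is not reported here. Other genes were chosen after their values were seen, among them Rpl23a, B830012L14Rik, Igf2os, Igf2bp1, Igf2bp2, Peg10 and Asb4, and Igf2bp3, Igf1r, Afp and Gpc3 in the livers labelled Tg.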

Additional observations from a re-analysis of the deposited data

Results flagged for a closer look

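H19 was at 79.3 CPM in the second 6J liver pool, against 0.114 to 0.939 CPM in the other 6J pools, and this pool was an outlier of its group by Dixon's test. Afp was at 6.44 CPM in the same pool, against 1.99 to 2.62 CPM in the others, and was an outlier too. Chance alone marks about 1 in 20 groups of 4 in this way. The same pool held 935 CPM of Xist and 778 CPM of Acta1; the part of either in the H19 or Afp level was not tested. Mest had a log2 fold change of -1.14 in hepatocytes labelled Tg and 0.82 in livers labelled Tg. Every pool labelled Tg was below the wild-type mean in hepatocytes and above it in liver, and the difference between the 2 effects was not tested.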

How the results depend on the processing

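Of the fold changes of the 8 genes under the alternatives, 183 kept their direction and moved by less than the spread between replicates, and 5 moved further: H19 (4.95) and Igf2 (2.81) in hepatocytes without wild-type pool 1, H19 in livers labelled Tg (9.09) without 6J pool 2, and Mirg (-4.38) and Igf2 (0.14) in KO livers without KO pools 2 and 3. For the other named genes 71 values lost the threshold and 19 passed it. None of the 14 fold changes of list genes that passed the test changed sign under an alternative, nor did any of the 15 fitted for the 8 genes. Of the 51 fold changes of list genes that did not pass, 11 took the other sign under at least 1 alternative.

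Counts of called genes depended on the tool. In hepatocytes 434 genes were called as reported, against 2026 by DESeq2, 420 with RLE size factors and 669 without a filter. The count was 21 with the replicate block and 4323 in 1 fit over all 6 groups. Other imprinted genes numbered 7 by DESeq2, 1 by RLE, 0 with the block and 13 in the fit over all groups (2 reported). The 4 related lists gave 0 with the block and 7 over all groups (4 reported). In livers labelled Tg the counts were 1242 by DESeq2, 44 with the block and 991 over all groups (188 reported). Other imprinted genes numbered 6 by DESeq2 and 4 over all groups (0 reported), and the related lists gave 7, 0 with the block and 6 (2 reported). In KO livers the counts were 892 by DESeq2, 1079 without a filter and 42 over all groups (475 reported). Other imprinted genes numbered 6, 6 and 0 in these fits (3 reported), and the related lists 6, 7 and 0 (3 reported). With the block KO livers gave 415.

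With 1 library left out, hepatocytes gave 0 (without wild-type pool 3) to 4934 (without Tg pool 3) called genes, 0 to 17 other imprinted genes and 0 to 13 of the related lists. Livers labelled Tg gave 27 (without 6J pool 3) to 561 (without Tg pool 1), 0 to 4 and 0 to 3. KO livers gave 137 (without KO pool 1) to 645 (without 6NJ pool 1), 1 to 4 and 0 to 2. The promoter motif was in 0 windows on the given strand alone (4 on both), and 12 of 30 most alike genes recurred by Spearman's rho and 1 of 30 over the 8 livers labelled Tg and 6J. The genes of Rian, which is at 0 in those 8 livers, could not recur there. Causes were not tested. Meg3, Rian, Mirg and Dlk1 rest on few counts outside the KO and 6NJ livers, which limits what can be said of them there.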

Other observations

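Of 8 listed genes of the Peg10-Sgce cluster, 3 that were highest in the same pool labelled Tg are given first; they were chosen after their values were seen. Peg10, a retrotransposon-derived paternal gene, had 3.22, 1.21, 2.80 and 11.7 CPM in livers labelled Tg and 0.285, 0.988, 0.276 and 0.411 CPM in 6J livers. Its neighbour Sgce had 7.05, 2.61, 5.07 and 13.7 CPM in livers labelled Tg and 2.39, 3.28, 2.04 and 1.70 CPM in 6J livers. Ppp1r9a had 23.0, 7.94, 6.52 and 57.6 CPM in livers labelled Tg and 6.95 to 10.3 CPM in 6J livers. The fourth pool labelled Tg was the highest for all 3 genes, whereas the third was the highest for H19 and Igf2. None of the 3 passed the test in this comparison, with an adjusted p of 0.0704 for Peg10, 0.123 for Sgce and 0.270 for Ppp1r9a (edgeR). Of the other 5, Asb4 had 0.601, 1.16, 2.08 and 1.09 CPM in livers labelled Tg and 0.285, 0.988, 0.496 and 0.176 CPM in 6J livers, and was highest in the third pool. The log2 fold changes of Pon2, Pon3 and Tfpi2 were 0.10 ± 0.11, -0.14 ± 0.11 and -0.26 ± 0.15 (SE), and Calcr did not pass the filter on low counts. In hepatocytes Peg10 had 2.10, 2.71 and 5.58 CPM in pools labelled Tg and 10.7, 45.9 and 16.9 CPM in wild-type pools (adjusted p = 0.0634, edgeR), the opposite direction; the difference between hepatocytes and livers was not tested.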
